A study of Mus musculus with 12 samples.

Results

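The ADAM, ADAMTS and MMP metalloproteases and their TIMP inhibitors were followed in dermal papilla cells, the cluster of mesenchymal cells that sits beneath the growing hair and signals to it. Members were taken by symbol: every gene named Adam or Adamts with a number, every numbered Mmp, Timp1 to Timp4, and Adamdec1. This gave 80 of the 25887 genes in the deposited tables, of which 34 belong to the ADAM family (with Adamdec1), 19 to the ADAMTS family, 23 to the MMP family and 4 are TIMPs. The study sequenced RNA from 12 libraries of papilla cells purified by flow sorting from wild-type (WT) mice and from Smo* mutants, 3 per group. Smo* is a gain-of-function form of Smo, the membrane protein that relays the Hedgehog signal, and by the series' title it is specific to the dermal papilla. The sources used here do not say how that specificity was achieved. Both groups taken at postnatal day 20 (P20) were labelled female and in telogen, when hair growth rests. Both P28 groups were labelled male, the WT group as anagen VI, the last growth stage, and the Smo* group as anagen I-III. Genotype and growth stage therefore differ together at P28, and age, sex and stage differ together between the WT groups. Since no label ties libraries to separate animals, p-values reflect how these samples scatter, and that scatter may be technical.

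These proteases are zinc enzymes that act outside the cell or at its surface. MMPs cut collagens and other matrix proteins and release growth factors bound there, membrane-type MMPs do so at the cell surface, and TIMPs block the active site. ADAMs are membrane proteins that shed the outer parts of ligands and receptors such as Notch, Kit ligand and the EGF family, while ADAMTS enzymes are secreted and cut versican, aggrecan, procollagen and other matrix proteins. The papilla has a matrix rich in versican that changes over the hair cycle, which makes the enzymes that cut it of interest in this tissue.

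The libraries held 36323058 to 48926831 reads on genes, and the members took between 0.584% and 0.791% of them. Values are normalized counts, that is reads divided by 1 size factor per library. Smo, Gli1 and Ptch1, the altered gene and a pair of Hedgehog targets, were higher in every Smo* library than in every WT library of the same age, with Ptch1 at 2408 to 5470.2 in P20 WT and 19150.2 to 42346 in P20 Smo*. P28 Smo* replicate 3 stood apart: it had reads on 15453 genes against 17337 or more elsewhere, and the summed counts of 11 dermal papilla markers were 37343 in it against 180799 and 286203 in its replicates. The same sum was 359694 to 428069 in P28 WT, 35856 to 40911 in P20 WT and 44431 to 62281 in P20 Smo*, and none of the markers was at 0 in any group. In such bulk samples fewer cells of a type and less RNA per cell cannot be told apart.

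Of the 80 members, 66 had a read in at least 1 library and 14 had none, among them 12 ADAM genes, Mmp7 and Mmp20. A further 12 stayed below a mean of 10 normalized counts over the 12 libraries. The levels were set by a few genes. Per kilobase of exon, the mean over 12 libraries was 13517 normalized counts for Timp2, an inhibitor of secreted and membrane-type MMPs, and 12593 for Mmp2, the gelatinase that cuts denatured and basement membrane collagen. Mmp14, the membrane-type MMP that together with TIMP2 activates the Mmp2 proenzyme, followed with 5607. Among the ADAMTS genes, Adamts2, a procollagen N-proteinase, reached 5191 and Adamts1, a versican- and aggrecan-cleaving enzyme, 4276. The stromelysin Mmp3 lay at 2323, Mmp23 at 1307 and Mmp19 at 899 normalized counts per kilobase. Mmp9, the second gelatinase, was at 6.13, and its values over the 12 libraries ran from 4.75 to 74.9 normalized counts.

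The ADAMs were less abundant and closer to one another. Adam9 (709 normalized counts per kilobase over 12 libraries), Adam10 (705) and Adam15 (559) led the family. Adam10 is the main sheddase of Notch and of many other surface proteins. Adam12, which sheds HB-EGF, was at 384 and Adam17, the sheddase of TNF and EGF-family ligands, at 354. Adamts15 (784), Adamts5 (753) and Adamts12 (679.9) completed the 5 most abundant ADAMTS genes. The other TIMPs were at 989 (Timp3, which is held in the matrix and also blocks ADAM17 and aggrecanases), 684 (Timp1) and 6.48 (Timp4). By family, MMPs took 40.2% to 48.2% of the members' summed counts per kilobase in each library, TIMPs 22.2% to 30.6%, ADAMTS genes 19.3% to 31.0% and ADAMs 4.93% to 7.34%.

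**Figure D1:**
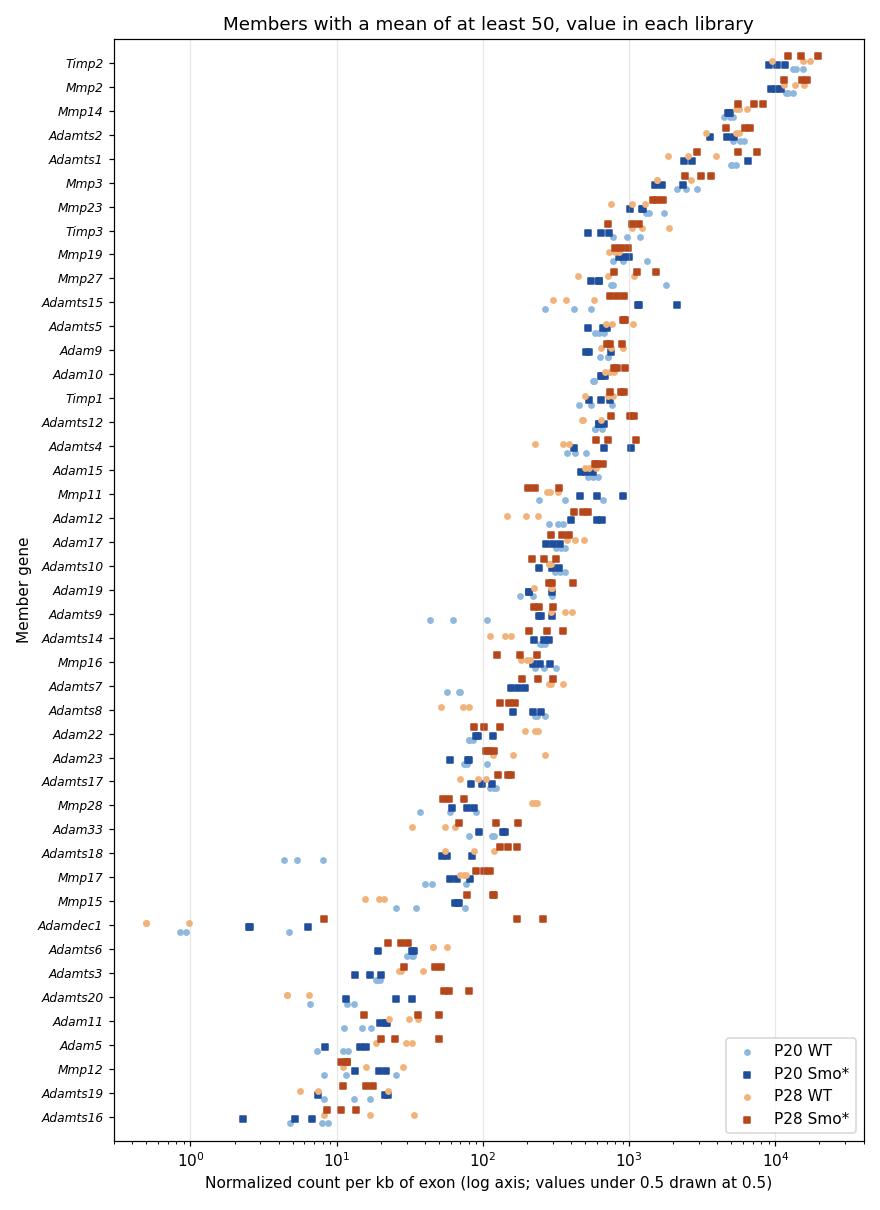
Normalized counts per kilobase of exon (log axis) of the 45 members with a mean of at least 50 normalized counts, 1 point per library, coloured by group and ordered by the mean over 12 libraries. Timp2 and Mmp2 lie at the top in all 4 groups, while Adamts18, Adamts9, Adamts7, Mmp15, Adamts20 and Adamdec1 have groups far from the others.

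A cluster of 10 MMP genes lies at chr9:7272514-7699585 (GRCm38), 427 kb in all, and its members differed by orders of magnitude in these cells. Mmp3 ranged from 2703 to 6537 normalized counts over the 12 libraries and Mmp27, further along, from 987 to 3967. Mmp12, the macrophage elastase, ranged from 58.8 to 207. The other 7 had a mean below 10: Mmp13, the main collagenase of mice, reached at most 18.3, Mmp8, the neutrophil collagenase, at most 35.0 and Mmp10, a second stromelysin, at most 6.78. Mmp1a and Mmp1b had 2 reads and 1 read in all, and Mmp7 and Mmp20 had none. Mmp12 and Mmp1b overlap on opposite strands, and the sources used here do not say whether strand was used in counting. How reads in the overlap were counted is therefore uncertain. To show what these starts share, the last 100 bases before the RefSeq start (GRCm38.p6) of 5 of the genes are printed, 5′ to 3′, with matches to the AP-1 motif TGANTCA in capitals.
Mmp13 (chr9:7272414-7272513, plus strand): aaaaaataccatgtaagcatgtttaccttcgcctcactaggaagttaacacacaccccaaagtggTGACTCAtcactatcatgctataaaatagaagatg
Mmp3 (chr9:7445722-7445821, plus strand): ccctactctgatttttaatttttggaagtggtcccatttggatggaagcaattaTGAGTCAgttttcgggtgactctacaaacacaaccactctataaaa
Mmp10 (chr9:7502242-7502341, plus strand): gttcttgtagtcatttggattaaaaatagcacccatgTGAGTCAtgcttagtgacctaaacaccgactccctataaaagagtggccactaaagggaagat
Mmp27 (chr9:7571296-7571395, plus strand): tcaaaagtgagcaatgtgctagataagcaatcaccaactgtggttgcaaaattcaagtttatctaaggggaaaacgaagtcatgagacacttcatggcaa
Mmp7 (chr9:7691990-7692089, plus strand): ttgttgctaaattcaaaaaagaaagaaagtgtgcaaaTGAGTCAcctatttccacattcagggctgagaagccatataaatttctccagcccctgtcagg
The motif was searched on both strands (it reads the same on either) in the 250 bases before each start. It was found before 8 of the 10 genes of the cluster, among them the abundant Mmp3 and Mmp7 with no read, and was not found before Mmp27 or Mmp8. Of the 32851 windows of 250 bases in the promoter table, 6.75% hold these letters. Among the 54 windows of the 49 members that the table covers, 12 do, all but those of Adam19, Adam20, Adam25 and Adam29 being in this cluster. The matches of Mmp20, Adam20 and Adam25 read TGAATCA, and the others TGAGTCA or TGACTCA. A match is a run of letters and not a bound site.

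**Figure D2:**
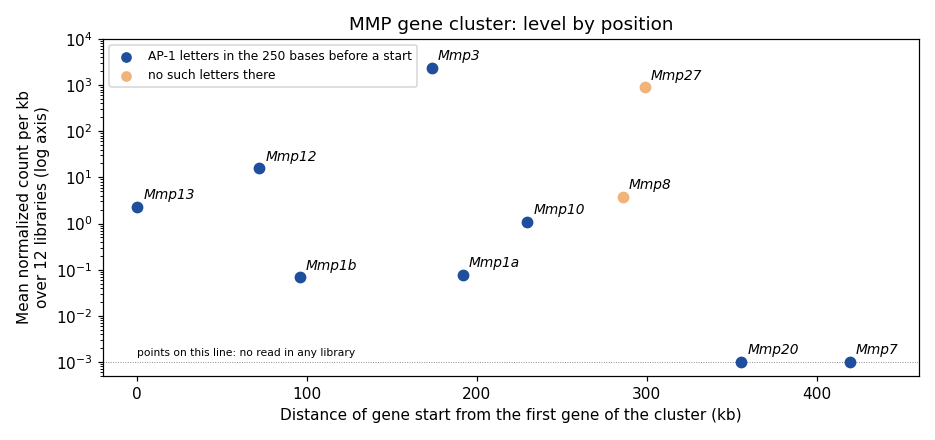
Mean normalized count per kilobase over 12 libraries (log axis) of the 10 MMP genes of the chromosome 9 cluster against the distance of each gene's start from the first gene, in kb. Dark points have the AP-1 letters in the 250 bases before a start. Mmp3 and Mmp27 stand above the others, and Mmp20 and Mmp7, drawn on the dotted line, had no read.

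The first comparison asked which members differ between Smo* and WT papilla cells in telogen. Of the 51 members tested at P20 (mean of at least 10 normalized counts over the 6 libraries), 4 rose in Smo*, all of them secreted ADAMTS enzymes, and 0 fell. They were Adamts18, Adamts9, Adamts7 and Adamts15. Of all 14645 genes tested, 0.696% were called and 0.485% were called higher (limma adjusted p under 0.05). Among the members, limma gave 8 higher and 6 lower at an unadjusted threshold of 0.05, edgeR called 3 higher and 0 lower, and DESeq2 5 higher and 1 lower. The shares of all genes under these other rules are not given, so these counts cannot be set against the 0.696%. Groups did not overlap for 14 of the 51 members, against 16.4% of all genes tested. In 9 of them Smo* was the higher group and in 5 the lower, against 8.04% and 8.34% of all genes. The median log2 fold change was 0.0786 over the members and 0.00253 over all genes. Without P20 WT replicate 2 the count of members called was 1, and without P20 Smo* replicate 2 it was 2.

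Adamts18, a secreted metalloprotease whose substrates are less well known than those of its relatives, had the largest change. Its values were 44.1, 54.1 and 81.9 normalized counts in P20 WT and 573, 857 and 533 in P20 Smo*. Every Smo* library was above every WT library (log2 fold change 3.44 with SE 0.28, limma adjusted p = 0.00296), and the mean in Smo* was 10.9 times that in WT. The call held with each library left out. Adamts9, which cuts versican and aggrecan, lay at 651, 939.7 and 1601 normalized counts in P20 WT and 3752, 3641 and 4434 in P20 Smo*. The groups did not overlap, although WT replicate 3 was more than 2 times WT replicate 1 (log2 fold change 1.98 with SE 0.28, limma adjusted p = 0.0283). This call ended without WT replicate 2 (limma adjusted p = 0.116), Smo* replicate 1 (adjusted p = 0.0523) or Smo* replicate 2 (adjusted p = 0.107). Promoter sequences of this pair, which rose together at P20, are given as the 250 bases before the RefSeq start (GRCm38.p6), 5′ to 3′ on the gene's strand.
Adamts18 (chr8:113848840-113849089, minus strand): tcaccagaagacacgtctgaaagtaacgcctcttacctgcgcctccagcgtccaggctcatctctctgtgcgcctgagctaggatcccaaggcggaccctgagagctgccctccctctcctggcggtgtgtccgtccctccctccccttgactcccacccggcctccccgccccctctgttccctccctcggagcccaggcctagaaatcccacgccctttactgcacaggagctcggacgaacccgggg
Adamts9 (chr6:92943535-92943784, minus strand): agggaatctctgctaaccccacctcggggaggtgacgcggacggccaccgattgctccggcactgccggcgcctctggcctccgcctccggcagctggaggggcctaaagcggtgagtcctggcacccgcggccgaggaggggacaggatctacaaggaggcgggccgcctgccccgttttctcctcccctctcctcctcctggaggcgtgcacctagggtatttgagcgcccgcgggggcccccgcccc
The Gli motif GACCACCCA, searched on both strands, was not found in either, which says only that these letters are not in these windows. It occurred in 0.225% of the 32851 windows of this length and in 0 of the 54 windows of the 49 members. G and C made up 65.2% of the Adamts18 window and 71.2% of the Adamts9 window, against a median of 52.4% over all windows.

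Adamts7, which cuts cartilage oligomeric matrix protein (COMP), lay at 439.7, 355 and 432 normalized counts in P20 WT and 1089, 1220.4 and 980.2 in P20 Smo*. The replicates of each group were close together and the groups far apart (log2 fold change 1.42 with SE 0.14, limma adjusted p = 0.0102). The call ended only without WT replicate 2 (limma adjusted p = 0.0574). Adamts15, an enzyme that cuts versican and aggrecan, was the most abundant of the 4, with 2764, 5698 and 4356 normalized counts in P20 WT and 12135, 21997 and 11821 in P20 Smo*. Smo* replicate 2 was the highest of the 6, and the groups did not overlap (log2 fold change 1.84 with SE 0.31, limma adjusted p = 0.0446). The Adamts15 call was close to the threshold: it ended without WT replicate 1 (limma adjusted p = 0.0922), WT replicate 2 (adjusted p = 0.0783), WT replicate 3 (adjusted p = 0.1), Smo* replicate 1 (adjusted p = 0.0614) or Smo* replicate 2 (adjusted p = 0.122), by edgeR (adjusted p = 0.0534) and when only genes with a mean of at least 50 were tested. The genes are located at ENSMUSG00000053399, chr8:113697126-113848738, minus strand (Adamts18), ENSMUSG00000030022, chr6:92772699-92943492, minus strand (Adamts9), ENSMUSG00000032363, chr9:90163069-90208071, plus strand (Adamts7) and ENSMUSG00000033453, chr9:30899155-30922452, minus strand (Adamts15), all in GRCm38.

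**Figure D3:**
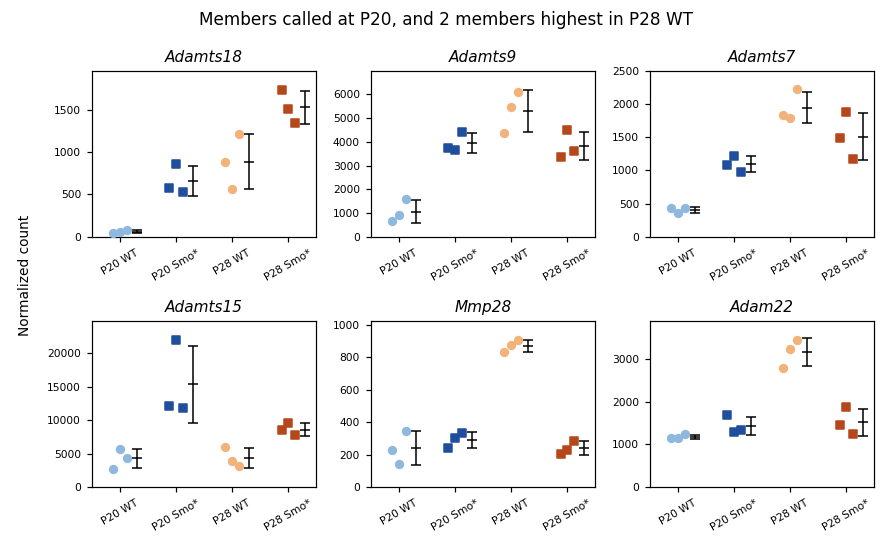
Normalized counts (linear axes, 1 panel per gene) of the 4 members that rose in Smo* at P20 and of Mmp28 and Adam22, with 1 point per library and bars for the mean ± SD of 3 libraries. Adamts18, Adamts9 and Adamts7 were low only in P20 WT, Adamts15 was higher in both Smo* groups, and Mmp28 and Adam22 were high only in P28 WT.

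By role, 2 of the 7 hyalectan-cleaving ADAMTS genes (hyalectans are the versican and aggrecan group of proteoglycans) rose at P20 and 5 did not pass the test. Of the COMP-cleaving pair, Adamts7 rose and Adamts12 lay at 6602 ± 409 in WT and 6968 ± 334 in Smo* (SD, n = 3). None of the 16 ADAM, 13 MMP and 4 TIMP genes tested was called by limma. Of the ADAMs, 3 were higher and 0 lower at an unadjusted threshold of 0.05, and DESeq2 called 1 of them and edgeR 0. For the MMPs the unadjusted counts were 0 higher and 4 lower and for the TIMPs 0 higher and 2 lower. DESeq2 called 0 MMPs and 1 TIMP, and edgeR 0 of both. The most abundant genes lay below WT in Smo*, without passing the test: Timp2 had 53544, 59848 and 51553 normalized counts in P20 WT and 39687, 35235 and 45594 in P20 Smo*, and Mmp2 had 39658, 44141 and 40909 normalized counts in P20 WT and 34156, 31268 and 36875 in P20 Smo*. In both genes the groups did not overlap, and limma adjusted p was 0.262 and 0.433. Timp3 likewise lay at 7961 ± 1656 in WT and 5142 ± 854 in Smo* (limma adjusted p = 0.229). The summed counts of 8 dermal fibroblast markers did not overlap either, at 194789 to 216316 in WT and 140859 to 181537 in Smo*. Of these markers limma called 1 lower and 0 higher (6 lower at an unadjusted threshold of 0.05, 1 by edgeR and 4 by DESeq2), and none was at 0. Their part in the values of these genes was not tested. Mmp14 was at 28748 ± 2162 and 28572 ± 341, Adam10 at 2804 ± 32.3 and 3229.5 ± 101, and Adam17 at 2442 ± 176 and 2155 ± 236.

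The same comparison at P28 set Smo* cells labelled anagen I-III against WT cells labelled anagen VI. Of 54 members tested, 10 were higher in Smo* and 4 were lower. Of all 14757 genes tested, 8.9% were called, 4.05% as higher and 4.85% as lower, against 25.9% of the members. The higher members were Adamts20, Mmp15, Adam12, Adamts8, Adamdec1, Adamts4, Adamts14, Adamts15, Adamts12 and Adamts17, and the lower ones were Mmp28, Adam22, Adamts6 and Adamts13. Groups did not overlap for 22 of the 54 members, against 33.4% of all genes. Smo* was the higher group in 16 of them and the lower in 6, against 15.6% and 17.8% of all genes. The median log2 fold change was 0.196 over the members and -0.00977 over all genes. Without P28 Smo* replicate 3, the library that stood apart, 14 members were called, 13 of them among the 14 called with it. Leaving out WT replicate 2 gave 7 calls, WT replicate 3 gave 6 and Smo* replicate 1 gave 9. Adamts15 was the only member called at both ages by limma. The authors' adjusted p also called Adam12 (0.0165 at P20 and 9.79e-08 at P28) and Adamts18 (7.21e-25 and 0.0406) at both. Each was higher in Smo*. At P20 Adam12 lay at 3372.5 ± 369 normalized counts in WT and 5823 ± 1381 in Smo*, without overlap (limma adjusted p = 0.138).

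The hyalectan-cleaving enzymes were the role group with the most calls: 4 of 7 rose and 0 fell (edgeR 4 and 0, DESeq2 5 and 0, and at an unadjusted threshold of 0.05 limma gave 5 and 1). Their median log2 fold change was 1.04. Adamts20, a versican-cleaving enzyme whose loss gives mice a white belt of unpigmented hair, lay at 41.0, 58.2 and 41.4 normalized counts in P28 WT and 725, 528 and 483 in P28 Smo*. All 3 Smo* libraries were far above the WT libraries (log2 fold change 3.60 with SE 0.25, limma adjusted p = 0.000237), and the Smo* mean was 12.4 times the WT mean. Adamts8, which cuts aggrecan and restrains vessel growth, lay at 368, 337 and 237 normalized counts in P28 WT and 693, 603 and 759 in P28 Smo* (log2 fold change 1.14 with SE 0.20, limma adjusted p = 0.013). Adamts8 was again free of overlap, and neither of these calls ended when any 1 library was left out.

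Adamts4, a classic aggrecanase, lay at 1863, 1098 and 1703 normalized counts in P28 WT and 5317, 3458 and 2857 in P28 Smo*. Its groups did not overlap, but Smo* replicate 1 stood well above its replicates (log2 fold change 1.31 with SE 0.27, limma adjusted p = 0.0229). The call ended without WT replicate 2 (limma adjusted p = 0.0806), WT replicate 3 (adjusted p = 0.0657) or Smo* replicate 1 (adjusted p = 0.0514). Adamts15 lay at 5961, 3842 and 3115 normalized counts in P28 WT and 8489, 9579 and 7706 in P28 Smo*, with closer replicates in Smo* than at P20 (log2 fold change 1.05 with SE 0.23, limma adjusted p = 0.0283). It was lost without WT replicate 2 (limma adjusted p = 0.113), WT replicate 3 (adjusted p = 0.0911), Smo* replicate 1 (adjusted p = 0.0706) or Smo* replicate 2 (adjusted p = 0.068). Adamts15 and Adamts8 are neighbours on chromosome 9, 20.1 kb apart and transcribed away from each other. Of the 3 hyalectan-cleaving genes not called, Adamts9 lay at 5314 ± 884 in WT and 3829 ± 593 in Smo* (limma adjusted p = 0.12). Adamts1 was at 14735 ± 5676 and 28248 ± 12362, and Adamts5, 53.1 kb from Adamts1 on chromosome 16, at 9058 ± 2088 and 9892 ± 161 (SD, n = 3).

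Other ADAMTS roles gave single calls. Adamts14, a procollagen N-proteinase, lay at 807, 583 and 733 normalized counts in P28 WT and 1076, 1428 and 1824 in P28 Smo*. The groups did not overlap, and Smo* spread widely (log2 fold change 1.01 with SE 0.21, limma adjusted p = 0.0253), the call ending without WT replicate 2 (limma adjusted p = 0.102), WT replicate 3 (adjusted p = 0.0829) or Smo* replicate 2 (adjusted p = 0.0575). Adamts2, the abundant enzyme of the same role, was at 44661 ± 11882 in WT and 54492 ± 10230.2 in Smo* and was not called. Adamts12, the COMP-cleaving relative of Adamts7, lay at 6955, 5162 and 5275 normalized counts in P28 WT and 10977, 8185 and 11841 in P28 Smo* (log2 fold change 0.83 with SE 0.18, limma adjusted p = 0.0289). Every Smo* library was above the WT libraries, yet the call ended without WT replicate 2 (limma adjusted p = 0.117), WT replicate 3 (adjusted p = 0.117) or Smo* replicate 1 (adjusted p = 0.0792). Adamts17, a gene of inherited short stature with lens defects, lay at 714, 542 and 821 normalized counts in P28 WT and 1208, 984 and 1143 in P28 Smo* (log2 fold change 0.70 with SE 0.18, limma adjusted p = 0.0475). It passed the threshold narrowly and was lost with any 1 library left out, at adjusted p from 0.0587 to 0.133.

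A pair of ADAMTS genes was lower in Smo*. Adamts6, the close relative of the fibrillin-binding Adamts10, lay at 353, 439.5 and 357 normalized counts in P28 WT and 238, 174 and 214 in P28 Smo*. WT was above Smo* without overlap (log2 fold change -0.88 with SE 0.19, limma adjusted p = 0.0295), and the call ended without WT replicate 1 (limma adjusted p = 0.0702), WT replicate 2 (adjusted p = 0.119), WT replicate 3 (adjusted p = 0.0944) or Smo* replicate 2 (adjusted p = 0.068). Adamts10 itself was at 2357 ± 45.1 and 2179 ± 399.6 and was not called. Adamts13, the enzyme that cuts von Willebrand factor, was near the floor: 18.8, 66.5 and 47.9 normalized counts in P28 WT and 7.71, 0.948 and 0 in P28 Smo* (log2 fold change -3.97 with SE 1.0, limma adjusted p = 0.047). The counts were low throughout, and the call ended by edgeR (adjusted p = 0.0604), with a pseudocount of 0.5 and without WT replicate 1 (limma adjusted p = 0.0815), WT replicate 2 (adjusted p = 0.201), WT replicate 3 (adjusted p = 0.201) or Smo* replicate 2 (adjusted p = 0.0856).

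Among the MMPs, 1 rose and 1 fell of 15 tested. Mmp15, a membrane-type MMP related to Mmp14, lay at 114, 84.3 and 105 normalized counts in P28 WT and 636, 418 and 639 in P28 Smo*. The lowest Smo* library was still more than 3 times the highest WT library (log2 fold change 2.46 with SE 0.23, limma adjusted p = 0.000815). Mmp28, or epilysin, a secreted MMP known from skin, lay at 832, 875 and 907 normalized counts in P28 WT and 206, 228 and 287 in P28 Smo*. It was lower in every Smo* library (log2 fold change -1.87 with SE 0.17, limma adjusted p = 0.000638), with replicates of both groups close together. Both calls held with each library left out. The abundant MMPs were not called by limma: Mmp2 lay at 45648 ± 7009 in WT and 48484 ± 9045 in Smo*, Mmp14 at 34724 ± 3207 and 41632 ± 7929, and Mmp3 at 3448 ± 1112 and 5495 ± 1105 (SD, n = 3). Of these, the authors' adjusted p called only Mmp3 (0.0423), as higher in Smo*. The abundant Mmp23 was also called higher by it (0.018). At an unadjusted threshold of 0.05, 4 MMPs were higher and 1 lower, the same counts as DESeq2 called after adjustment. None of the 4 TIMPs was called by limma, edgeR or DESeq2, or at an unadjusted threshold of 0.05, with Timp2 at 54563 ± 15964 and 60937 ± 14561.

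Of 16 ADAM genes tested at P28, 2 rose and 1 fell. Adam12 lay at 2504, 1542 and 2088 normalized counts in P28 WT and 4423, 5073 and 5556 in P28 Smo*, and each Smo* library was above each WT library (log2 fold change 1.32 with SE 0.19, limma adjusted p = 0.00514). Adam22, which has lost its protease site and binds the secreted LGI proteins, lay at 2802, 3238 and 3439 normalized counts in P28 WT and 1462, 1866 and 1238 in P28 Smo*. WT was above Smo* throughout (log2 fold change -1.07 with SE 0.17, limma adjusted p = 0.00819). Neither call ended with any library left out. Adam10 (3631 ± 242 and 4179.9 ± 387) and Adam17 (3087 ± 417 and 2458 ± 355) were not called (limma adjusted p = 0.312 and 0.21). The promoter of Adam22 is given for the 250 bases before its RefSeq start (GRCm38.p6), 5′ to 3′, as that of an ADAM gene that is high only in P28 WT.
Adam22 (chr5:8368161-8368410, minus strand): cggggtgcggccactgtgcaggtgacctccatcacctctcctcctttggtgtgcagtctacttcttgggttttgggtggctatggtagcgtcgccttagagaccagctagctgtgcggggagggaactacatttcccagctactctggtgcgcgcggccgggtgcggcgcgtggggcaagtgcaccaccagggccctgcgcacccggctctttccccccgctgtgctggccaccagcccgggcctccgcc
It holds neither the AP-1 nor the Gli letters. Adam22 is located at ENSMUSG00000040537, chr5:8072352-8368160, minus strand, Adam12 at ENSMUSG00000054555, chr7:133883199-134232146, minus strand, Mmp28 at ENSMUSG00000020682, chr11:83440768-83463071, minus strand, Mmp15 at ENSMUSG00000031790, chr8:95352268-95375080, plus strand and Adamts20 at ENSMUSG00000022449, chr15:94270163-94465418, minus strand, in GRCm38.

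Adamdec1, a secreted ADAM-like protein known from macrophages, dendritic cells and gut fibroblasts, was nearly without reads in WT. Its values were 0, 2.38 and 0 normalized counts in P28 WT and 419.9, 19.9 and 624 in P28 Smo*. The WT libraries held 2 reads in all and the Smo* libraries 985, a ratio of 527 after scaling, with an exact 95% interval of 145 to 4360 that covers counting error only. Smo* replicate 2 was far below its replicates, and the call (limma adjusted p = 0.0161, edgeR adjusted p = 0.0139) ended without WT replicate 1 (limma adjusted p = 0.051), WT replicate 3 (adjusted p = 0.0626) or Smo* replicate 1 (adjusted p = 0.0677). At P20 Adamdec1 stayed below the mean needed for a test, at 5.30 in WT and 9.27 in Smo*. The summed counts of 8 immune markers were 1044 to 1376 in P28 WT, with Itgam at 0, and 1089 to 1449 in P28 Smo*, and those of 8 dermal fibroblast markers 126352 to 211983 and 172609.5 to 211916, none of them at 0. Their part in the Adamdec1 values was not tested.

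**Figure D4:**
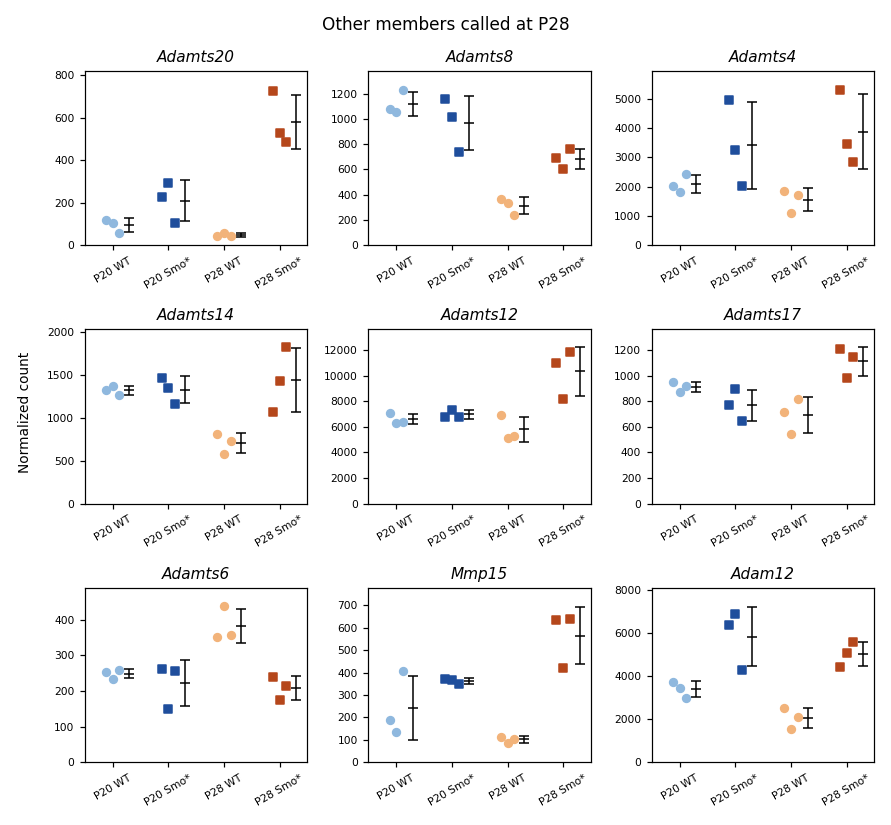
Normalized counts (linear axes, 1 panel per gene) of 9 further members called at P28, with 1 point per library and bars for the mean ± SD of 3 libraries in each of the 4 groups. Adamts6 was lower in P28 Smo* than in P28 WT and the other 8 were higher. Adamdec1 and Adamts13, called from few reads in 1 group, are not drawn.

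Markers of some other cell types differed in the P28 comparison. Limma called 0 of the 5 immune and 0 of the 4 melanocyte markers tested. The melanocyte sums overlapped, at 104 to 239 in WT and 171 to 224 in Smo*. Of 6 endothelial markers, 3 were higher in Smo* (Cdh5, 4.37, Vwf, 1.93, and Pecam1, 1.53 on the log2 scale) and 0 lower. Their summed counts were 1651 to 3228 in WT and 3448 to 5918 in Smo*, and none was at 0 in any group. The Pecam1 call ended without WT replicate 1 or 2 (limma adjusted p up to 0.0646) and by limma on 12 libraries. Of 11 papilla markers, 1 was higher and 4 were lower in Smo*. Hair matrix and shaft markers summed to 588 to 977 in P28 WT and 228 to 591 in P28 Smo*, and the hair keratins Krt31 and Krt33a were at 0 in every group but P28 WT. Limma, edgeR and DESeq2 each called 1 of the 3 hair matrix and shaft markers tested lower and 0 higher. Keratinocyte markers summed to 766 to 995 and 269 to 449.5. Of 8 keratinocyte markers limma called 0, with 3 lower and 0 higher at an unadjusted threshold of 0.05, 0 by edgeR and 1 lower by DESeq2. Sums of 4 Schwann cell markers were 239 to 439 in WT and 448 to 732 in Smo*, and those of 4 skeletal muscle markers 43.5 to 57.1 (with Myh4 at 0) and 71.6 to 160.4, both without overlap. Limma called 0 of the 3 tested in either list, with 2 Schwann and 1 muscle marker higher at an unadjusted threshold of 0.05, 0 by edgeR and 1 of each by DESeq2. Of 6 dermal sheath and smooth muscle markers, 1 was higher and 1 lower in Smo*, with sums of 14634 to 18019.9 and 12614 to 17479. The part of these cells in the members' differences was not tested. At P20, 0 of 6 endothelial markers passed the limma test (2 higher at an unadjusted threshold of 0.05, 0 by edgeR and 1 by DESeq2), with sums of 1568 to 2976 in WT and 2636 to 2910.4 in Smo*.

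Whether the Smo* effect differed between the ages was tested with an interaction term in 1 limma fit of all 12 libraries. It did for 10 of the 54 members tested, 5 toward a higher and 5 toward a lower effect at P28, against 4.72% of all 14790 genes (1.89% higher and 2.83% lower). The median difference was 0.188 over the members and -0.0175 over all genes. The 5 with a lower effect at P28 were Adamts18 (-2.59 on the log2 scale, SE 0.41), Adamts9 (-2.45), Mmp28 (-2.22), Adamts7 (-1.81) and Adam22 (-1.34), with limma adjusted p from 0.0018 to 0.0069. All 5 held with each of the 12 libraries left out. Of the 5 with a higher effect at P28, Adamts20 (2.52), Adamts8 (1.38), Adamts14 (1.01), Mmp23 (0.97) and Adamts17 (0.96), only Adamts8 held with each library left out. Adamts15, called at both ages, had a difference of -0.80 (limma adjusted p = 0.303).

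Within the 5 genes with a lower effect at P28 the group means fell into a pair of patterns. Adamts18, Adamts9 and Adamts7 were low in P20 WT and higher in the other 3 groups. Adamts9 lay at 1064 ± 487 in P20 WT, 3942 ± 429 in P20 Smo*, 5314 ± 884 in P28 WT and 3829 ± 593 in P28 Smo*. Adamts7 lay at 409 ± 46.9, 1096 ± 120.3, 1948 ± 239.8 and 1512 ± 356 in the same order. At P28 the Adamts9 and Adamts7 groups overlapped, and the fold changes were -0.47 and -0.39 (limma adjusted p = 0.12 and 0.228). Adamts18 was still higher in every P28 Smo* library (1728, 1505 and 1340.2) than in every P28 WT library (882, 559 and 1213), without passing the limma test (log2 fold change 0.85 with SE 0.26, limma adjusted p = 0.0882), while DESeq2 called it (adjusted p = 0.0299). Mmp28 and Adam22 had the second pattern, high in P28 WT alone. Mmp28 lay at 241 ± 102, 291 ± 48.8, 872 ± 37.6 and 240.1 ± 41.7, and its fold change at P20 was 0.35 (limma adjusted p = 0.73).

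All 5 genes with a higher effect at P28 had their lowest mean in P28 WT. Adamts8 lay at 1122 ± 94.8 in P20 WT, 969.5 ± 213 in P20 Smo*, 314 ± 68.6 in P28 WT and 685 ± 78.4 in P28 Smo*. Adamts14 lay at 1322 ± 51.8, 1329 ± 156, 708 ± 114 and 1443 ± 374, so that the 3 groups other than P28 WT had like means. Mmp23, a membrane-anchored MMP, lay at 3433 ± 532, 2718 ± 300.4, 2410.2 ± 622 and 3674 ± 311. Limma called it for the difference (adjusted p = 0.0488) and at neither age alone, while the authors' adjusted p at P28 was 0.018, with Smo* higher. The call for the difference held only without P28 WT replicate 1 among the 12 libraries left out in turn, with limma adjusted p up to 0.115. It also ended under TMM scaling, by edgeR and with no filter. Adamts20 spanned the widest range, with 94.2 ± 31.4, 209 ± 96.3, 46.9 ± 9.82 and 579 ± 129. Its call ended without P20 WT replicate 2, P28 WT replicate 3 or P28 Smo* replicate 1, at adjusted p up to 0.0618. The Adamts14 call ended with no filter and, among libraries left out, held only without P28 WT replicate 1 or P28 Smo* replicate 1, and the Adamts17 call only without P20 Smo* replicate 2, P28 WT replicate 1, P28 WT replicate 3 or P28 Smo* replicate 2, at adjusted p up to 0.106 and 0.0845.

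**Figure D5:**
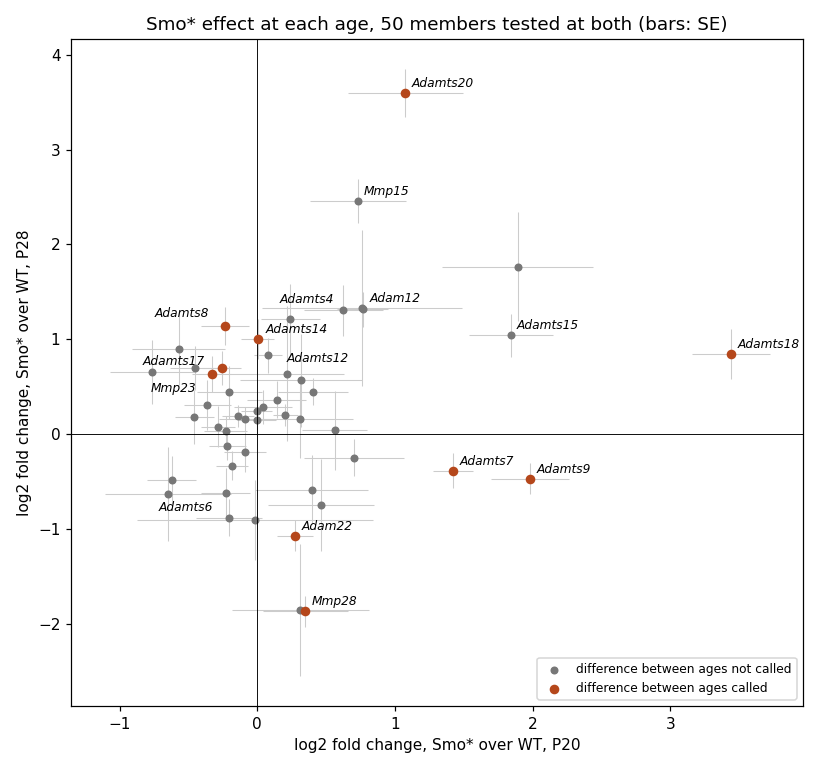
log2 fold change of Smo* over WT at P20 (horizontal) against that at P28 (vertical) for the 50 members tested at both ages, with bars for the standard error. Red points are members whose effect differed between the ages. Adamts18, Adamts9 and Adamts7 lie far to the right with P28 values from -0.47 to 0.85, and Adamts20 and Mmp15 lie at the top.

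Between P20 and P28 the WT libraries differ in age, sex and stage, which cannot be told apart. This comparison shares its libraries with those above, so its values are given beside them and not as separate evidence. Of 54 members, 8 were higher and 6 lower in P28 WT (25.4% of all genes called, 13.5% higher and 11.9% lower, and 25.9% of the members). Groups did not overlap for 27 of the members, against 45.1% of all genes, with P28 higher in 16 and lower in 11 (23.6% and 21.6% of all genes). The largest increases were in Adamts18 (log2 fold change 3.84 with SE 0.29, limma adjusted p = 5.5e-06), Adamts9 (2.41), Adamts7 (2.25), Mmp28 (1.94) and Adam22 (1.42), and all 5 held with each library left out. Adam10 rose by less (0.37, limma adjusted p = 0.0133), a call that ended without P28 WT replicate 1 (adjusted p = 0.0511). The largest decreases were in Adamts8 (log2 fold change -1.86 with SE 0.19, limma adjusted p = 5.24e-05), Mmp15 (-1.12), Adam33 (-1.08), Adamts14 (-0.91) and Adam12 (-0.74). Those of Adamts8 and Adamts14 held with each library left out. Mmp15 was lost without P20 WT replicate 3, P28 WT replicate 2 or P28 WT replicate 3 (adjusted p up to 0.0811). Adam33 was lost without P20 WT replicate 1 or 3 or P28 WT replicate 2 or 3 (up to 0.143), and Adam12 without P20 WT replicate 1 or 2 or P28 WT replicate 2 (up to 0.0704). Adam23 and Adam5, which also rose, and Mmp23, which also fell, completed the 14, the first pair being named after their values were seen. The Adam23 call held with each library left out. That of Adam5 ended without P20 WT replicate 2 or 3 or P28 WT replicate 2 or 3 (limma adjusted p up to 0.101). That of Mmp23 ended by edgeR, with no filter and with 9 of the 12 libraries left out in turn (limma adjusted p up to 0.172), and held only without P20 Smo* replicate 3, P28 WT replicate 1 or P28 Smo* replicate 3. Adamts18 rose in WT to 14.7 times its P20 mean.

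In Smo* the same step in age and sex, from telogen to anagen I-III, gave 3 higher and 1 lower of 54 members, against 3.46% of all genes (1.98% higher and 1.47% lower). Adamts20 (log2 fold change 1.57 with SE 0.37, limma adjusted p = 0.043), Adamts3, a procollagen N-proteinase (1.31, SE 0.26), and Adamts18 (1.24) rose, and Mmp11, or stromelysin 3 (-1.34), fell. Adamts3 lay at 109.5, 92.3 and 72.1 normalized counts in P20 Smo* and 254, 283 and 157 in P28 Smo*, without overlap. Mmp11 lay at 1272, 2507 and 1668 normalized counts in P20 Smo* and 919, 567 and 633 in P28 Smo*, also without overlap. None of the 4 calls held with every library left out, and adjusted p then reached 0.126 for Adamts20, 0.0878 for Adamts3, 0.133 for Adamts18 and 0.119 for Mmp11. The count of calls ran from 0 to 6. It was 0 without P20 Smo* replicate 3 or P28 Smo* replicate 1, and 1 without P20 Smo* replicate 1. Without P28 Smo* replicate 2 all 4 calls ended and 3 other members were called. The count was 2 without P20 WT replicate 2 or any single P28 WT library, and without P28 WT replicate 1 only 1 of those 2 was among the 4. DESeq2 called 13 members, 12 of them higher, but its share over all genes is not given and the 3.46% is that of limma. Without P28 Smo* replicate 3 the count was 6, all higher, of which 3 were among the 4. The median log2 fold change was 0.392 over the members and -0.00121 over all genes. Groups did not overlap for 25 members, against 24.4% of all genes, with P28 higher in 20 and lower in 5, against 12.2% and 12.1% of all genes.

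Genes that work with these proteases were counted from fixed role lists. Of 7 convertases and plasminogen activators, which activate proenzymes, 1 rose and 1 fell at each age. At P20 Pcsk5, a convertase that cuts proenzymes at basic sites, rose in Smo*, with 3458 ± 114 against 2053 ± 139 normalized counts in WT (log2 fold change 0.75 with SE 0.10, limma adjusted p = 0.0225), and Plau, urokinase, fell, with 829.6 ± 122 against 2037 ± 179.7 (log2 fold change -1.30 with SE 0.14, limma adjusted p = 0.0129). Both calls ended without P20 WT replicate 2, at adjusted p up to 0.0942 and 0.0745 over the libraries left out, that of Pcsk5 also without WT replicate 1, WT replicate 3 or Smo* replicate 2, and that of Plau by limma on 12 libraries. At P28 Plaur, the urokinase receptor, rose (0.86 on the log2 scale), and Furin, the convertase that removes the prodomain of many ADAMs and membrane-type MMPs, fell (log2 fold change -0.71 with SE 0.13, limma adjusted p = 0.0153). Both were lost without P28 WT replicate 1 or 3, and Plaur also without WT replicate 2 or Smo* replicate 1 and by limma on 12 libraries, at adjusted p up to 0.0953. Of 8 other matrix-degrading proteases, 7 were tested, and Fap, a fibroblast surface protease, fell at P28 (log2 fold change -1.34 with SE 0.18, limma adjusted p = 0.00352). Of 7 ADAMTS-like and papilin genes, which lack protease activity, Adamtsl1 (1.06) and Adamtsl3 (1.72) were higher in Smo* than in WT at P28. Both calls were lost without WT replicate 2, WT replicate 3, Smo* replicate 1 or Smo* replicate 3 (adjusted p up to 0.15). From P20 to P28 in WT, limma called 5 of the 7 lower and 0 higher, against 11.9% of all genes called lower. In Smo* it called 0 of the 7 over that step.

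Substrates were read in the same way. Vcan, which encodes versican, the main hyalectan here, lay at 20664 ± 621 in P20 WT, 30626 ± 2724 in P20 Smo*, 126389 ± 19760.3 in P28 WT and 87312 ± 60669.5 in P28 Smo*. It was not called by limma in either Smo* comparison and rose with age in WT (log2 fold change 2.60 with SE 0.48, limma adjusted p = 0.0023). The summed counts of 4 hyalectans were 20254 to 21400 in P20 WT and 28593 to 33368 in P20 Smo*. At P28 they were 104737 to 142581 in WT and spread from 23809 to 144944 in Smo*. Limma called 0 of the 3 hyalectans tested at P20, with 2 higher and 0 lower at an unadjusted threshold of 0.05. There edgeR called 0 and DESeq2 1 higher. Acan, aggrecan, rose with age in WT (2.25) and was higher in P28 Smo* than in P28 WT (log2 fold change 0.94 with SE 0.22, limma adjusted p = 0.0335). The Acan call at P28 ended by the authors' deposited table, by limma on 12 libraries and with 5 of the 6 libraries left out in turn, the exception being Smo* replicate 3, at adjusted p up to 0.109. Of 16 ligands and receptors known to be shed by ADAMs, 13 were tested at P28, and 5 rose and 0 fell (edgeR 5 and 0, DESeq2 6 and 0, and 5 and 1 at an unadjusted threshold of 0.05 by limma). They were Dll1, a Notch ligand (log2 fold change 2.39 with SE 0.22, limma adjusted p = 0.000668), Kitl, the ligand of Kit on melanocytes (1.65), Hbegf, an EGF-family ligand (1.17), the Notch ligand Jag1 (1.06) and Notch1 (0.91). Hbegf was lost without WT replicate 2, WT replicate 3 or Smo* replicate 1 (adjusted p up to 0.0685), and Jag1 with every library but Smo* replicate 3 (up to 0.0981). At P20, 0 of 14 were called by limma, with 5 higher and 1 lower at an unadjusted threshold of 0.05, 0 by edgeR and 3 by DESeq2. Transcript levels do not measure protease activity, proenzyme activation or shedding.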

How the data were processed

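RNA of flow-sorted dermal papilla cells was sequenced in 12 libraries, 3 per group, after ribosomal depletion and with a kit that keeps the strand, per the labels' protocols. Per the submitters' processing notes the tools were Trimmomatic, TopHat2, HTSeq and DESeq2, and the builds GRCm38.p4 and mm10, with no role given for any. The sources used here do not say whether strand was used in counting. Near-identical copies (Adam1a and Adam1b, Adam6a and Adam6b, Adam26a and Adam26b, Mmp1a and Mmp1b) are uncertain.

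The 2 deposited tables hold normalized counts (unit: signal), which are counts that the authors scaled by a single size factor for each library. This was read from the values: 100% of them gave whole reads when scaled back, to within 0.01 reads. The deposited mean column equals the mean over all 12 libraries, so the tables were normalized together. The tables also hold the authors' log2 fold change (WT over Smo*) with its standard error, their test statistic (a score), p-value and adjusted p-value. GENCODE vM21 (GRCm38) named 98.7% of the identifiers and gave positions and exon lengths. No column was left unused, and replicate numbers follow accession order and name samples only.

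The main test was limma 3.58.1 (R 4.3.3) on log2(value + 1), with the variance trend, for all genes whose mean reached 10. P-values were adjusted by Benjamini-Hochberg over all genes tested, at a threshold of 0.05. Smo* and WT were compared at each age over its 6 libraries, and the interaction and the stage comparisons used 1 fit of 12 libraries. This scale shrinks the fold changes of low genes. SE is limma's standard error and SD is over 3 libraries. The script was tested on simulated counts. Alternatives were TMM scaling, pseudocounts of 0.5 and 5, no filter, a minimum mean of 50, edgeR 4.0.16 (quasi-likelihood) and DESeq2 1.42.0 on recovered reads, the authors' adjusted p, limma on 12 libraries and leaving out each library. An exact permutation test of 3 against 3 libraries cannot go below p = 0.1. Shares over all genes are given for the limma adjusted threshold and for groups that do not overlap. Counts at an unadjusted threshold, by edgeR, by DESeq2 or by the authors' adjusted p have no such share here. Those counts, for members, role lists and markers, show only how the calls depend on the method.

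Named were all members called for Smo* or for the difference between ages, the 5 most abundant members of each protease family per kilobase, all TIMPs, the 5 largest called changes per direction between stages, Mmp2, Mmp9, Mmp14, Adam10 and Adam17, and up to 4 called genes per related list. Members and lists were chosen with earlier results of these data known. Promoter windows are the 250 bases before RefSeq starts (GRCm38.p6), which covered 49 of the 80 members.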

Additional observations from a re-analysis of the deposited data

Results flagged for a closer look

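For 10 members the Smo* effect differed between P28 and P20 by the interaction term of limma over 12 libraries, each value being the P28 effect minus the P20 effect on the log2 scale. It was lower at P28 for Adamts18 (-2.59, adjusted p = 0.00527), Adamts9 (-2.45, adjusted p = 0.00358), Mmp28 (-2.22, adjusted p = 0.0069), Adamts7 (-1.81, adjusted p = 0.0018) and Adam22 (-1.34, adjusted p = 0.00576). It was higher at P28 for Adamts20 (2.52, adjusted p = 0.0207), Adamts8 (1.38, adjusted p = 0.0167), Adamts14 (1.01, adjusted p = 0.045), Mmp23 (0.97, adjusted p = 0.0488) and Adamts17 (0.96, adjusted p = 0.0384). Sex, age and the labelled stages differ between these comparisons and cannot be told apart.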

How the results depend on the processing

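No paired analysis was possible because the labels give no replicate number that 2 groups share. Counts of called members moved beyond 1.5 times in 15 of the 87 counts under alternatives, most of them for P28 against P20 in Smo*. At P20 the 4 calls ranged from 1 to 5 with 1 library left out, the lowest count being that without P20 WT replicate 2. At P28 the 14 calls became 22 by the authors' deposited table (15 higher and 7 lower) and ranged from 6 to 14 with 1 library left out. For P28 against P20 in Smo*, the 4 calls became 1 with no filter and 13 by DESeq2, and ranged from 0 to 6 with 1 library left out. The 22 and the 13 are given without the share of all genes called by the same method. The difference between ages kept 7 to 12 calls and the WT stage comparison 10 to 19. No printed fold change changed sign under any alternative run. TMM scaling moved the median over all genes by less than 0.1 on the log2 scale. Depth limited the members with few reads: 12 with a read stayed below a mean of 10 normalized counts and entered a test only with no filter or at single ages.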

Other observations

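Related genes also differed in their Smo* effect between the ages. Dll1, a Notch ligand, had a P28 effect above its P20 effect by 3.15 on the log2 scale, Hbegf by 2.05 and Kitl by 1.65, all past the limma threshold over 12 libraries. With 1 library left out, Hbegf reached adjusted p = 0.0622 (its call ended without P20 WT replicate 2 or 3 or P28 WT replicate 3), and the other two held.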
